A study of Saccharomyces cerevisiae with 3 samples.

Results

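The genes of histidine and tryptophan synthesis and *GCN4*, the gene of the transcription factor that activates most of them, were followed in wild type yeast (WT) and in strains lacking *SPT3* (*spt3Δ*) or *SPT8* (*spt8Δ*). The group was listed by gene symbol, with 10 genes in all: *HIS1*, *HIS4*, *HIS5* and *HIS7*, *TRP1* to *TRP5* by number, and *GCN4*. Of these, 9 were measured, out of 5449 *S. cerevisiae* genes on the array. *TRP1* had no probe set named for it in the platform annotation and was not analysed here. *HIS3* was kept apart because the strains carry a mutant allele of it.

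The arrays were GeneChip Yeast Genome 2.0 arrays, with 1 array for each of the 3 strains, so differences between strains rest on single arrays and were not tested. All strains share the BY4742 background named in the labels. By the labels *spt3Δ* and *spt8Δ* each lack 1 gene of SAGA, a coactivator complex that acetylates histones and delivers the TATA-binding protein (TBP) to promoters. The study's strain list gives a *KanMX* cassette in place of the deleted gene. Cells grew at 30 °C in 5 mL of YPD, a rich medium that contains amino acids, to an optical density of 0.7. Neither the number of colonies nor that of cultures behind each array is stated.

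Histidine is built from ATP and phosphoribosyl pyrophosphate (PRPP), and tryptophan from chorismate, the last common precursor of the aromatic amino acids, with PRPP entering that pathway too. In budding yeast both pathways belong to general amino acid control: when an amino acid runs short, the kinase Gcn2 slows translation initiation, the *GCN4* mRNA is then translated more, and Gcn4 activates biosynthetic genes with the help of coactivators that include SAGA. *TRP1* is known as an exception that Gcn4 does not control. *HIS4* has a second place in the history of these mutants, since many *SPT* genes were found as suppressors of Ty element insertions in the *HIS4* promoter. Spt3 and Spt8 have also been described as inhibitors of TBP binding at *HIS3* and *TRP3*.

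The deleted genes were read first. *SPT3* was at least 43.2-fold lower in *spt3Δ* than in WT and *SPT8* at least 40.2-fold lower in *spt8Δ*, each below the background of the array that should lack it. Background here is the 95th percentile of the fission yeast (*S. pombe*) probe sets that the same array carries, at 7.17 for WT, 6.67 for *spt3Δ* and 8.61 for *spt8Δ*. Genes specific to *MATα* cells had signals from 1109 to 9816 and genes specific to *MATa* cells from 5.07 to 50.7 over the 3 arrays. *LYS2* and *URA3* were not above background on any array, whereas *MET17* (*MET15*) had signals of 6686 to 8377. *LEU2*, a further deleted marker of the background, was above background on every array, with low signals of 9.50 (WT), 18.2 (*spt3Δ*) and 34.0 (*spt8Δ*), and the last was past the threshold of 2 SD described next. The mating-type genes, *LYS2* and *MET17* go with BY4742, a *MATα* strain, and not with the *MATa met15* genotype in the study's strain list.

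No member of the group lay past the threshold in either mutant. The threshold was 2 SD of all log2 ratios on either side of their mean, which came to 2.40-fold lower or 2.78-fold higher in *spt3Δ* and 1.87-fold lower or 2.02-fold higher in *spt8Δ*. In *spt3Δ*, 0 of 9 members were called, against 3.71% of all genes (2.73% lower and 0.973% higher). In *spt8Δ*, 0 of 9 were called, against 3.76% of all genes (2.13% lower and 1.63% higher). Between *spt3Δ* and *spt8Δ* directly, 0 of 9 were called, against 3.47% of all genes (2.62% lower and 0.844% higher). At these shares of all genes a count of 0 among 9 is near the background and is not a result about the group. Each signal is also an average over a culture, so fewer cells with a transcript and less of it per cell cannot be told apart.

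The median gene on the array was not at the level of WT: the median log2 ratio of all genes was 0.15 in *spt3Δ* and 0.067 in *spt8Δ*. Ratios are therefore given as deposited and, where stated, relative to that median. The 9 members had a median log2 ratio of 0.12 in *spt3Δ* and −0.14 in *spt8Δ*. Relative to all genes these medians were −0.032 and −0.21. As deposited, 4 members lay above and 5 below the median of all genes in both mutants. In *spt3Δ* the side of the group depends on the scaling: relative to all genes its median was 0.28 after quantile normalization and 0.33 after loess correction, with 6 and 7 of 9 members above. In *spt8Δ* the same scalings gave −0.040 and −0.027, with 4 of 9 above.

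**Figure D1:**
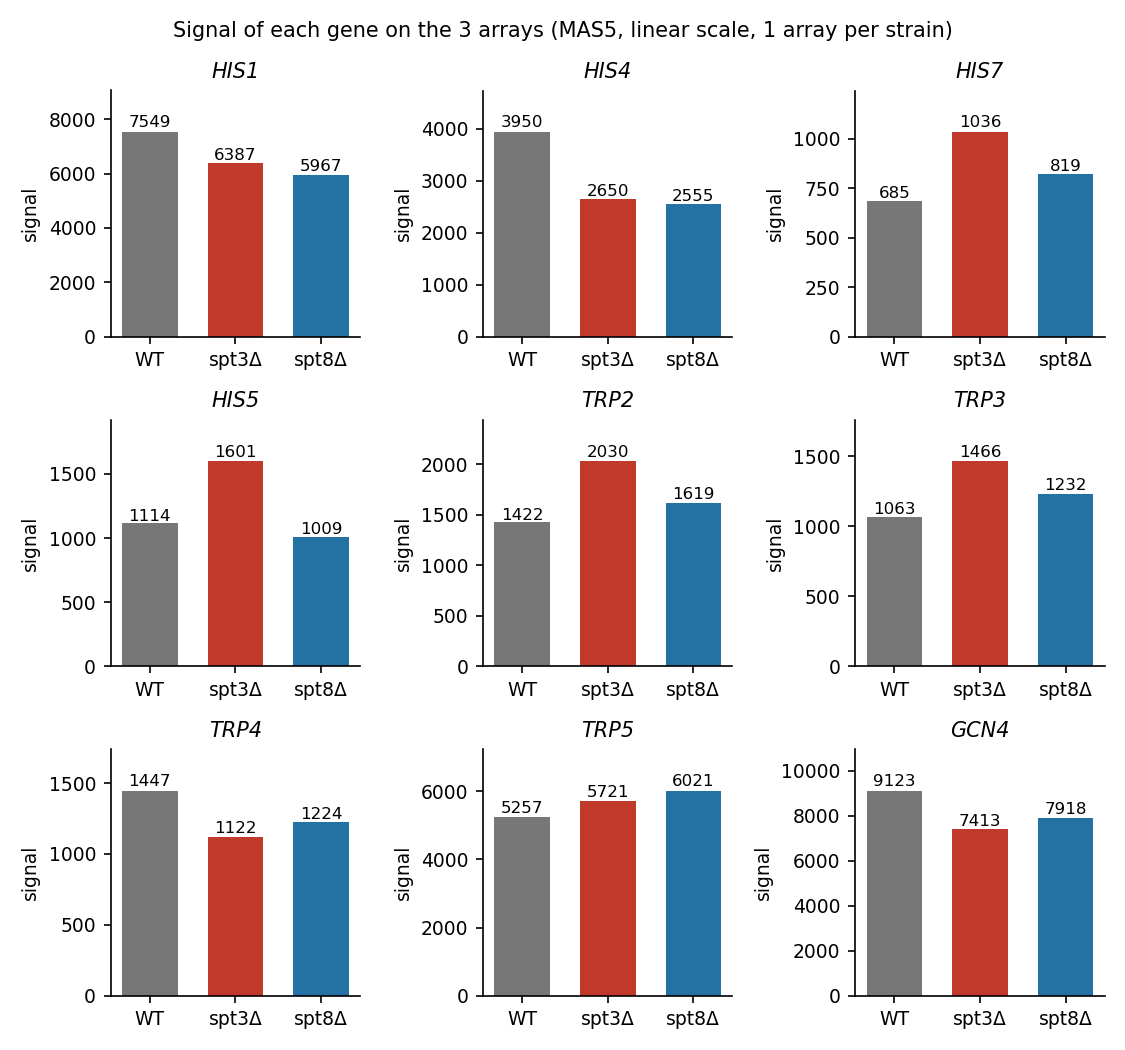
Bars give the deposited signal (linear scale, y axis from 0) of each gene in WT (grey), *spt3Δ* (red) and *spt8Δ* (blue), 1 array each and so with no error bars; y axes differ between genes. *HIS4* was at 3950 in WT and at 2650 and 2555 in the mutants, while *HIS5* was highest in *spt3Δ* at 1601.

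*HIS4* had the lowest ratio of the members in both mutants, under all 10 settings (the deposited values and 9 alternatives). Of the alternatives, only quantile and loess scaling and 50 added to each signal could change the order of the members. In *spt3Δ*, *TRP4* was near *HIS4* after quantile (−0.50 against −0.53) and loess scaling (−0.50 against −0.52). *HIS4* encodes a multifunctional enzyme that carries out several steps of the pathway, the last among them. Its signal stood at 3950 in WT, 2650 in *spt3Δ* and 2555 in *spt8Δ*. It was thus 1.49-fold below WT in *spt3Δ* (log2 ratio −0.58) and 1.55-fold below it in *spt8Δ* (−0.63), and both mutant arrays were close to each other. In *spt3Δ* 477 of the 5449 genes (8.75%) had a lower ratio than *HIS4*, and in *spt8Δ* 217 (3.98%) did. It lay 0.998 SD below the mean of all genes in *spt3Δ* and 1.42 SD below in *spt8Δ*, inside the threshold in both. In *spt8Δ* it was the 1 member that passed a narrower threshold of 2 robust SD, which called 5.62% of all genes lower, and it passed 2 SD with 50 added to each signal, where 2.50% of all genes were lower.

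*HIS1* encodes the ATP phosphoribosyltransferase that opens the pathway and is inhibited by histidine. Its signal stood at 7549 in WT, 6387 in *spt3Δ* and 5967 in *spt8Δ*, so it was highest in WT. Against WT it was 1.18-fold lower without Spt3 and 1.27-fold lower without Spt8. The direction in *spt3Δ* depends on the scaling of the arrays: the log2 ratio was −0.24 as deposited, 0.039 after quantile normalization and 0.019 after a loess correction for signal. In *spt8Δ* it stayed below 0, between −0.41 and −0.18 over all 10 settings.

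*HIS7* and *HIS5* act in the middle and near the end of the pathway. *HIS7*, the imidazole glycerol phosphate synthase, had a signal of 685 in WT, 1036 in *spt3Δ* and 819 in *spt8Δ*. This was 1.51-fold higher in *spt3Δ* (log2 ratio 0.60, 0.44 relative to all genes) and 1.20-fold higher in *spt8Δ* (0.26, or 0.19). As deposited it had the highest ratio of the members in both mutants. After quantile or loess scaling *TRP2* was highest in *spt3Δ* (0.47 and 0.43) and *TRP5* in *spt8Δ* (0.29 and 0.30).

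*HIS5*, the histidinol-phosphate aminotransferase, was the member with the widest gap between the mutants. Its signal stood at 1114 in WT, 1601 in *spt3Δ* and 1009 in *spt8Δ*, so *spt3Δ* stood above the other arrays. It was 1.44-fold higher in *spt3Δ* and 1.10-fold lower in *spt8Δ*. Read directly, *spt3Δ* was 1.59-fold above *spt8Δ* (log2 ratio 0.67, 1.17 SD from the mean of that comparison), and 241 genes of the 5449 had a higher ratio. Over the 10 settings this log2 ratio lay between 0.58 and 0.67.

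The other enzymes of the pathway were inside the thresholds too. *HIS2*, the histidinol phosphatase, had signals of 577 in WT, 567 in *spt3Δ* and 459 in *spt8Δ*. *HIS6*, the isomerase of the pathway, had signals of 692, 800 and 734 in the same order. *HIS3*, the imidazole glycerol phosphate dehydratase, is read here from the mutant allele of the background, and its signal stood at 1589 in WT, 2638 in *spt3Δ* and 1774 in *spt8Δ*. It was 1.66-fold higher in *spt3Δ* (log2 ratio 0.73) and 1.12-fold higher in *spt8Δ*, inside both thresholds. As deposited, its ratio in *spt3Δ* was above that of every member.

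*TRP2* and *TRP3* encode partners of anthranilate synthase, the enzyme that commits chorismate to tryptophan, and *TRP3* also carries the indole-3-glycerol-phosphate synthase. *TRP2* had a signal of 1422 in WT, 2030 in *spt3Δ* and 1619 in *spt8Δ*. *TRP3* had a signal of 1063 in WT, 1466 in *spt3Δ* and 1232 in *spt8Δ*. Both were highest in *spt3Δ*, intermediate in *spt8Δ* and lowest in WT. *TRP2* was 1.43-fold higher in *spt3Δ* and 1.14-fold in *spt8Δ*, and *TRP3* 1.38-fold and 1.16-fold. The log2 ratios of the partners differed by 0.049 in *spt3Δ* and 0.027 in *spt8Δ*. For comparison, different probe sets of 1 gene, available for 47 genes, had a median range of log2 ratios of 0.21 in *spt3Δ* and 0.20 in *spt8Δ*, so the partners cannot be ordered.

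*TRP4*, the anthranilate phosphoribosyltransferase that uses PRPP, lay on the other side of WT. Its signal stood at 1447 in WT, 1122 in *spt3Δ* and 1224 in *spt8Δ*. It was 1.29-fold lower in *spt3Δ* (log2 ratio −0.37, −0.52 relative to all genes) and 1.18-fold lower in *spt8Δ* (−0.24, or −0.31). WT was the highest array for this gene, as it was for *HIS1*, *HIS4* and *GCN4*.

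*TRP5*, the tryptophan synthase of the closing step, had a signal of 5257 in WT, 5721 in *spt3Δ* and 6021 in *spt8Δ*. It stood 1.09-fold above WT in *spt3Δ* and 1.15-fold above it in *spt8Δ*. In *spt3Δ* the log2 ratio was 0.12 as deposited, −0.032 once centred on all genes and 0.32 after loess correction, so its side of WT is set by the scaling.

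*GCN4* had a signal of 9123 in WT, 7413 in *spt3Δ* and 7918 in *spt8Δ*. The mRNA was 1.23-fold lower in *spt3Δ* (log2 ratio −0.30) and 1.15-fold lower in *spt8Δ* (−0.20), with 19.8% and 18.2% of all genes lower still. After quantile normalization and loess correction the ratio in *spt3Δ* was −0.0099 and 0.0059, which removes the difference and, under loess, turns its sign. In *spt8Δ* these settings gave −0.023 and −0.030. Because Gcn4 is regulated mainly at translation and breakdown, the mRNA signal does not measure the amount of the protein.

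**Figure D2:**
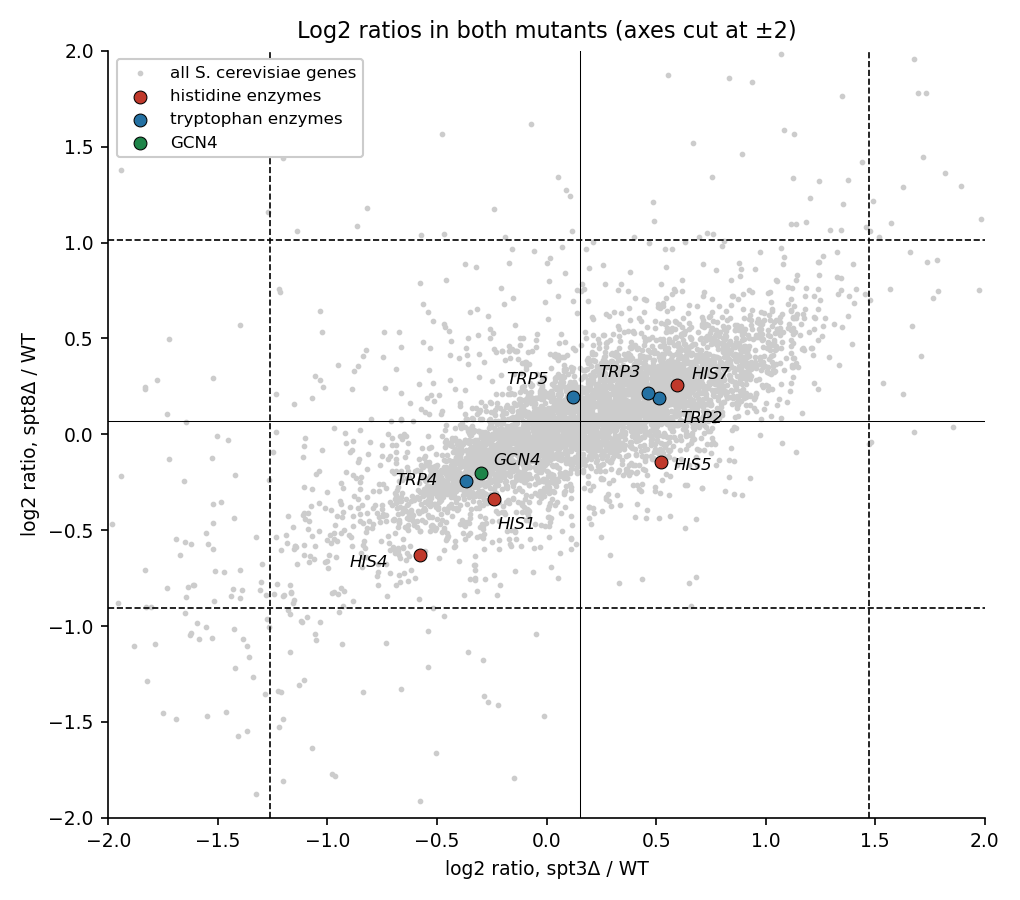
Each point is a gene, with its log2 ratio of *spt3Δ* to WT on the x axis and of *spt8Δ* to WT on the y axis; grey points are all *S. cerevisiae* genes, and 110 genes lie outside the plotted range of −2 to 2. Dashed lines mark 2 SD from the mean of all genes and thin lines the median of all genes; all 9 colored members lie inside the dashed lines, with *HIS4* lowest on both axes. Both axes use the same WT array.

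The members were not alike among themselves. In *spt3Δ* their log2 ratios ran from −0.58 (*HIS4*) to 0.60 (*HIS7*), with an SD of 0.46 against 0.68 for all genes. In *spt8Δ* they ran from −0.63 to 0.26, with an SD of 0.31 against 0.48. The SD of all genes also takes in 181 genes not above background on some array, the deleted genes among them. Of the 36 pairs of members, 10 in *spt3Δ* and 12 in *spt8Δ* differed by less than the median range between probe sets of 1 gene. That range covers differences within an array and not those between cultures. In *spt3Δ* 8 of 9 members lay further than that range from the median of all genes, as did 68.9% of all genes, and in *spt8Δ* 5 of 9 did, against 48.9%, so these counts are no result about the members.

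Neither pathway moved as a unit. The 4 histidine enzymes had a median log2 ratio of 0.14 in *spt3Δ* and −0.24 in *spt8Δ*, with 2 and then 1 of 4 above the median of all genes. The 4 measured tryptophan enzymes had medians of 0.29 and 0.19, with 2 and then 3 of 4 above it. In *spt3Δ*, *HIS1* and *HIS4* were below that median and *HIS7* and *HIS5* above it, and *TRP2* and *TRP3* were above it and *TRP4* and *TRP5* below. *HIS1* and *TRP5* pass to the other side after quantile or loess scaling. *TRP5* also does so, narrowly, with 50 added to each signal (0.121 against 0.116 for all genes).

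The genes of general control around *GCN4* were inside the thresholds with 1 exception. *PCL5* encodes a cyclin that directs the kinase Pho85 to Gcn4 and so speeds its breakdown, and it is itself known as a Gcn4 target. Its signal stood at 1117 in WT, 445 in *spt3Δ* and 304 in *spt8Δ*, so both mutants were well below WT. It was 2.51-fold lower in *spt3Δ* (log2 ratio −1.33) and 3.67-fold lower in *spt8Δ* (−1.88), past the threshold in both. In *spt3Δ* it passed narrowly, at 2.10 SD below the mean, and 139 genes (2.55%) had a lower ratio. In *spt8Δ* it lay 4.02 SD below, and 30 genes (0.551%) were lower. Both ratios rest on the same WT array. The kinase gene *PHO85* had log2 ratios of 0.11 and 0.16, and *CDC4*, of the ubiquitin ligase that takes Gcn4 to the proteasome, −0.36 and −0.22. *PCL5* was past the threshold in both mutants under all 9 alternatives as well.

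The genes of Bas1 and its partner, which activate *HIS4* apart from Gcn4, lay on the opposite side of WT from *HIS4* itself. *BAS1*, whose product maintains basal *HIS4* and purine gene transcription, had a signal of 313 in WT, 492 in *spt3Δ* and 429 in *spt8Δ*. *PHO2*, the partner gene, had a signal of 143 in WT, 225 in *spt3Δ* and 173 in *spt8Δ*. Their log2 ratios in *spt3Δ* were 0.65 and 0.66, inside the threshold. Above WT is the more common side, with 61.2% of all genes in *spt3Δ* and 58.9% in *spt8Δ*. *RAP1*, a general factor that also binds the *HIS4* promoter, was at 0.018 in *spt3Δ* and −0.13 in *spt8Δ*.

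Of 11 genes that control Gcn4 translation, the Gcn2 pathway and subunits of eIF2 and eIF2B among them, 0 were past a threshold, with log2 ratios from −0.20 (*GCD7*) to 0.57 (*GCD6*) in *spt3Δ* and from −0.058 (*GCD11*) to 0.36 (*GCD6*) in *spt8Δ*. With 3.71% and 3.76% of all genes called, a count of 0 among 11 is near the background. *GCN2*, the kinase that senses uncharged tRNA, had a signal of 477 in WT, 603 in *spt3Δ* and 498 in *spt8Δ*. *MBF1*, a bridge between Gcn4 and TBP, had log2 ratios of −0.27 and −0.20. The list medians were 0.15 and 0.059, against 0.15 and 0.067 for all genes.

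Supply of the precursors was also inside the thresholds, as was uptake. With 3.71% of all genes called in *spt3Δ* and 3.76% in *spt8Δ*, this is near the background for lists of 7, 5 and 4 genes. The 7 genes of chorismate synthesis and its other branches had log2 ratios from −0.22 (*ARO4*) to 0.46 (*TYR1*) in *spt3Δ* and from −0.35 (*ARO3*) to 0.22 (*TYR1*) in *spt8Δ*. *ARO3* and *ARO4* encode the isoenzymes of the entry step, and *TYR1* leads to tyrosine. The 5 PRPP synthetase genes lay below the median of all genes in *spt3Δ* without exception, with ratios from −0.32 (*PRS5*) to 0.047 (*PRS2*), and 4 of 5 did in *spt8Δ*, counts that were the same under quantile and loess scaling. Of 4 permease genes, *TAT1*, for aromatic and other amino acids, had the lowest ratios at −0.53 and −0.38, and the histidine permease gene *HIP1* had −0.39 and −0.098. The others were *TAT2*, at −0.23 and −0.11, and *GAP1*, above WT at 0.20 and 0.27.

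**Figure D3:**
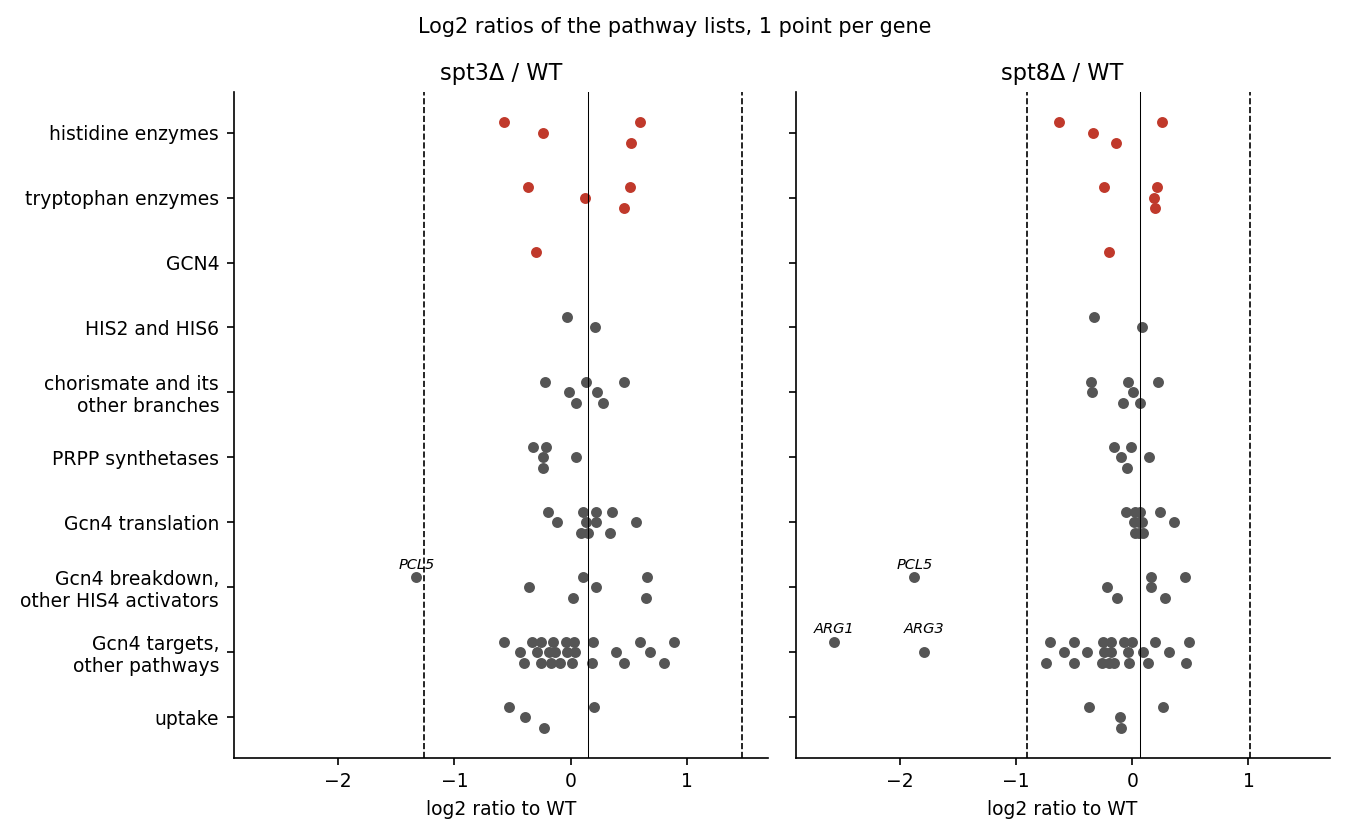
Each point is a gene and the x axis its log2 ratio to WT, for *spt3Δ* (left) and *spt8Δ* (right); the members are red and the other lists grey. Dashed lines are the thresholds of 2 SD and the thin line the median of all genes. Genes past a threshold are named: *PCL5* in both mutants, and *ARG1* and *ARG3* in *spt8Δ*.

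Genes that Gcn4 activates in other amino acid pathways were the closest comparison. Of these, 25 were measured here. In *spt3Δ*, 0 of 25 were past the threshold and 17 lay below the median of all genes, with a list median of −0.037. In *spt8Δ*, 2 of 25 (2.13% of all genes were called lower) were past the lower threshold and 19 lay below the median of all genes, with a list median of −0.19. After loess correction the genes below the median of all genes numbered 14 and 17. The count of 2 depends on the rule: with 2 robust SD, where 5.62% of all genes were lower, it was 5, with *ARG4*, *LEU4* and *LYS20* added, and with 50 added to each signal, where 2.50% were, it was 4, with *ARG4* and *LEU4* added.

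The 2 genes past 2 SD, *ARG1* and *ARG3*, belong to arginine synthesis. *ARG1*, the argininosuccinate synthetase, had a signal of 2596 in WT, 2437 in *spt3Δ* and 437 in *spt8Δ*. *ARG3*, the ornithine carbamoyltransferase, had a signal of 190 in WT, 172 in *spt3Δ* and 54.9 in *spt8Δ*. For both, *spt8Δ* stood apart from the other arrays, with log2 ratios to WT of −2.57 and −1.79. *ARG4*, the argininosuccinate lyase, had signals of 2155, 3459 and 1286 in the same order and was inside the 2 SD threshold against WT in both mutants. Directly, the log2 ratio of *spt3Δ* to *spt8Δ* was 2.48 for *ARG1*, 1.65 for *ARG3* and 1.43 for *ARG4*, all past the threshold of that comparison, which made 3 of 25 called higher against 0.844% of all genes. These calls of *ARG1*, *ARG3* and *ARG4* held under all 9 alternatives. The gap was not shared by all arginine genes of the list: *ARG8*, the acetylornithine aminotransferase, had signals of 539, 453 and 456 and a direct log2 ratio of −0.0083. *CPA1*, at 0.32, and the ornithine transporter gene *ORT1*, at 0.66, were on the same side as *ARG1*, *ARG3* and *ARG4* but inside the threshold. Among the members, *HIS5* at 0.67 came nearest to the gap of those genes, and the other members ran from −0.13 (*TRP4*) to 0.34 (*HIS7*).

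The other genes of that list were inside the 2 SD thresholds. *LYS21*, a homocitrate synthase gene of lysine synthesis, had the highest log2 ratio at 0.89 in *spt3Δ* and 0.49 in *spt8Δ*. *LEU3*, an activator of leucine synthesis, had 0.81 and 0.31, and *ILV6*, the regulatory subunit of acetolactate synthase, 0.60 and 0.46. At the other end *ILV3*, of branched-chain amino acid synthesis, had −0.58 and −0.50, close to *HIS4*, and *LEU4*, the main isopropylmalate synthase, −0.33 and −0.71. Ratios on both sides of WT, found among the histidine and tryptophan genes, were thus also present in the other pathways. The SD of the members was below that of all genes (0.46 against 0.68 in *spt3Δ* and 0.31 against 0.48 in *spt8Δ*). The SD of all genes is widened by the deleted genes and includes genes near background, so this is no result about the members. In *spt8Δ* the limits at 2 robust SD of all genes were −0.51 and 0.65, against −0.91 and 1.01 at 2 SD. The difference between the lists was not tested.

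The study asked how far Spt3 and Spt8 act near telomeres, so the place of the members was read from the gene order of the R64 assembly. None was among the 8 outermost probed genes of an arm. The study set its subtelomeres by distance from the telomere, a measure not used here. *TRP3* was nearest to a chromosome end, at place 12, and *HIS4* was at place 35. The probed genes on either side of *HIS4* were *RRP7*, of ribosome assembly, with log2 ratios of 0.87 in *spt3Δ* and 0.20 in *spt8Δ*, and *BIK1*, a microtubule-binding protein, with 0.90 and 0.22. Both neighbors thus lay above WT where *HIS4* lay below, and 61.2% of all genes lay above WT in *spt3Δ* and 58.9% in *spt8Δ*. *HIS7* had *ENP1* (0.57 and 0.34) on 1 side and *ARO4* (−0.22 and −0.35) on the other. Over all members, 9 of 18 neighbors lay on the same side of the median of all genes as the member in *spt3Δ*, and 0 of 18 were past a threshold in either mutant. The median splits all genes evenly, and 3.71% of them were called in *spt3Δ* and 3.76% in *spt8Δ*. Both counts are thus near the background and no result about the neighbors. Neighbors were chosen by gene order, after the values of the members had been seen.

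With 3 arrays, likeness of a pattern to that of *GCN4* has little resolution. By distance over the pair of log2 ratios to WT, the closest of 5259 other genes above background on all arrays were *ERP1*, *NEO1* and *VRG4*, and 250 genes lay within 0.1. Closest to the median of the 8 enzyme genes were *CBS2*, *BMT6* and *SPS1*, with 238 genes within 0.1.

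**Figure D4:**
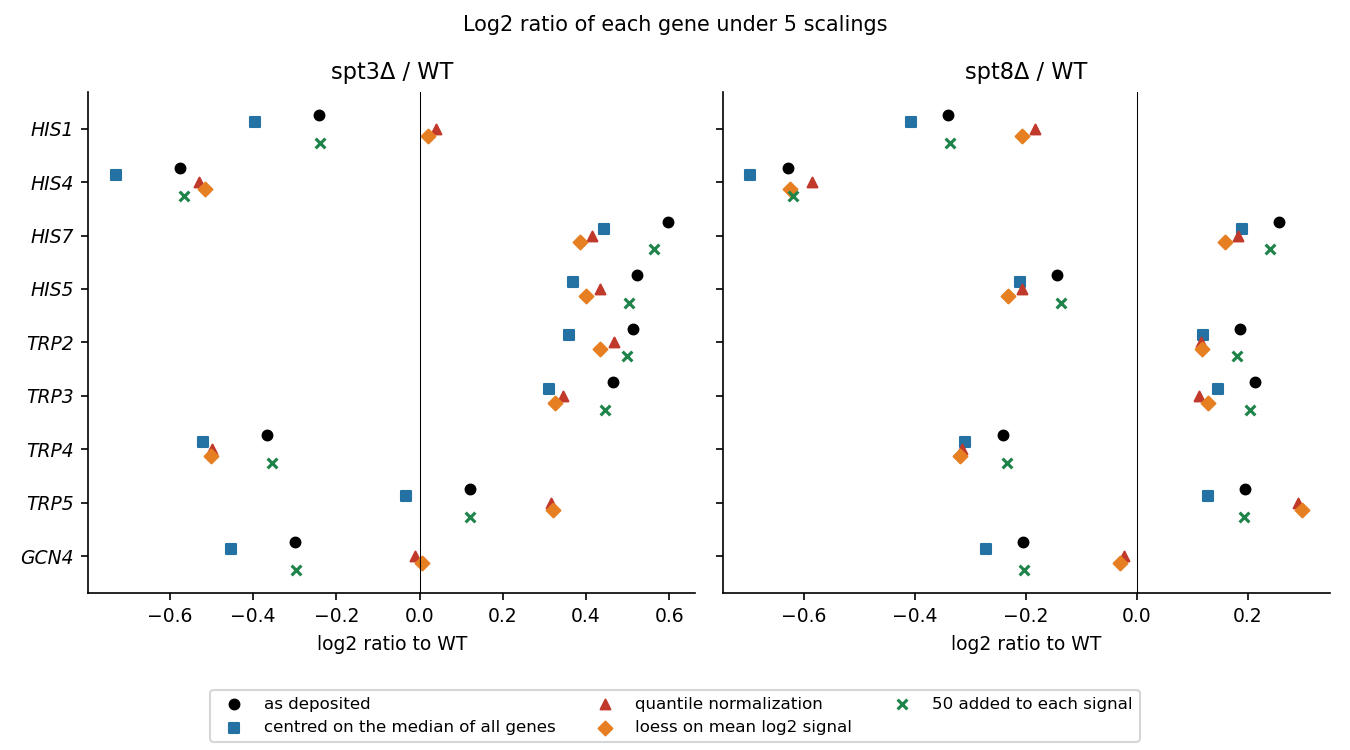
Symbols give the log2 ratio to WT (x axis) of each gene in *spt3Δ* (left) and *spt8Δ* (right) under 5 scalings of the same arrays. *HIS4*, *TRP4*, *HIS7*, *HIS5*, *TRP2* and *TRP3* stay on 1 side of 0 within each mutant, *HIS5* above it in *spt3Δ* and below it in *spt8Δ*. *HIS1*, *TRP5* and *GCN4* cross 0 in *spt3Δ*.

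Across the 10 settings, 6 of 9 members kept the sign of their log2 ratio in *spt3Δ* and 9 of 9 did in *spt8Δ*. The 3 that crossed 0 in *spt3Δ* were *HIS1*, *TRP5* and *GCN4*. Directly between the mutants, *HIS4*, *TRP5* and *GCN4* crossed 0. Only quantile, median and loess scaling could turn a sign, as the other settings leave the sign of a member's ratio unchanged. Every member was at or above 95.1 times the background on each array, so background does not bound these ratios. The number of arrays does.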

How the data were processed

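The deposited intensity values hold, for each probe set, a linear signal that was background-corrected by the authors with Microarray Suite (MAS5) at default settings; the submitters' processing notes also name Affymetrix Expression Console, with no version of it given in the sources used here. The authors scaled the arrays to trimmed means of 500.4, 500.3 and 500.3 (2% trimmed at each end). From 200 ng of total RNA per strain, 1 array was made per strain, and samples were grouped by the genotype label.

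Of 10928 probe sets, 7245 had a gene name, of which 1 named several genes and was left out. Species and symbols came from the R64 gene table, with 12 symbols updated, which gave 5498 *S. cerevisiae* and 1746 *S. pombe* probe sets. Where a gene had several probe sets, their log2 signals were averaged; each of the 9 members had 1 probe set, none shared between genes. Genes past the mean of all log2 ratios by 2 SD were called, after the study's figure legends, with no filter on low signal. The limits are not those of the study. Its printed lower limits were closer to WT in both mutants, and it counted more lower genes in *spt8Δ*. No p-value was computed. A bound divides the bright signal by the signal or background of the dimmer array, whichever is higher.

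The 9 alternatives were quantile, median and loess (span 0.3) scaling, 50 added to each signal, genes above background only, thresholds of 2-fold or 2 robust SD (1.4826 times the median absolute deviation), shared probe sets left out, and the brightest probe set. The steps were tested on simulated arrays. The members and lists were chosen with earlier results of these data known. Named genes were the members, the deleted genes, and in each list up to 4 genes with the largest ratios and those past a threshold; further list genes were named for their role after values were seen. Python 3.11.15, pandas 2.3.3, numpy 2.4.6 and statsmodels 0.14.6 were used.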

Additional observations from a re-analysis of the deposited data

Results flagged for a closer look

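Genes above background on all arrays whose log2 ratios to WT had opposite signs in *spt3Δ* and *spt8Δ*, as deposited and relative to the median of all genes, were listed, for the members and for pathway genes past a threshold. *HIS5* was 0.52 above WT in *spt3Δ* and at −0.14 in *spt8Δ* on the log2 scale, a difference of 0.67 that was not tested. *ARG4* was at 0.68 in *spt3Δ* and −0.74 in *spt8Δ*, a difference of 1.43 that was not tested either.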

How the results depend on the processing

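No paired analysis was possible because there was 1 array per strain, and for the same reason no array could be left out. The count of members called stayed at 0 in *spt3Δ* and between the mutants under all 9 alternatives. In *spt8Δ* it became 1, *HIS4*, with 50 added to each signal and with 2 robust SD, and was 0 under the other 7. The median log2 ratio of the members moved by more than the median range between probe sets of 1 gene in 1 case, between *spt3Δ* and *spt8Δ*, from 0.098 to 0.22 after quantile normalization. Of the ratios of single members, 181 values stayed within that range and 8 moved beyond it, all under quantile or loess scaling and for *GCN4*, *HIS1* or *HIS7*. Many of the 181 could not move. The settings for shared probe sets, the brightest probe set and genes above background leave the ratio of a member unchanged. Median scaling shifts all members alike, by less than that range. Only quantile and loess scaling and 50 added to each signal could move a value beyond it. The same holds for the median of the members. In *spt3Δ*, 4 members lay above the median of all genes as deposited, 5 with 50 added to each signal, 6 after quantile normalization and 7 after loess correction. Calls over all genes depended more on the rule: 202 in *spt3Δ* with 2 SD, 455 with 2-fold and 361 with 2 robust SD, and 205, 193 and 526 in *spt8Δ*. The calls of *PCL5*, *ARG1*, *ARG3* and *ARG4* given above held under all 9 alternatives, a check added after their values were seen.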

Other observations

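The array also carries fission yeast probe sets for genes of the same names as the members, which differ from them in sequence and were not used in any comparison. Of 24 readings on 8 such probe sets (*his1*, *his4*, *his5*, *his7*, *trp1*, *trp2*, *trp3* and *trp4* of *S. pombe*), signals ran from 0.162 to 8.14, and 1 was above background, *his5* in WT at 8.14 against a background of 7.17.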
